A study of Mus musculus with 12 samples.

Results

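The genes of the constitutive proteasome were followed in B16F10 cells, a mouse melanoma line, in which Osgep was depleted with a short hairpin RNA. They were taken as the protein-coding genes whose symbol is Psma, Psmb, Psmc or Psmd followed by a number, without the inducible subunits Psmb8, Psmb9 and Psmb10. This gave 36 genes of the 55487 in the tables, of which 21974 were protein-coding. The Psma and Psmb genes, 16 in all, are called the 20S core here, and the 20 Psmc and Psmd genes the 19S cap. All cells carried a hairpin, either the control (shCtr) or hairpin OSGEP#2 (shOSGEP), and the culture was halted with cycloheximide before lysis. Ribosome-protected fragments (RPF, the pieces of mRNA shielded by ribosomes, captured with a puromycin analogue) and RNA libraries were sequenced from 3 replicates of each genotype, which gave 12 libraries in 4 groups of 3. A single hairpin and a single cell line limit what the groups can stand for. The methods of the study describe independent transductions for its replicates, all of the same line, and the labels themselves do not tie a library to one.

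The proteasome is the main protease of the cytosol and nucleus and degrades proteins that carry ubiquitin chains. Its 20S core is a barrel of 4 stacked rings. The outer alpha rings (Psma1 to Psma7) form the gate, and the inner beta rings (Psmb1 to Psmb7) hold the active sites of Psmb5, Psmb6 and Psmb7. The 19S cap sits on the barrel. Its base unfolds substrates with 6 ATPases (Psmc1 to Psmc6) and its lid removes ubiquitin through Psmd14. When proteasome activity is limiting, the transcription factor NRF1 (gene Nfe2l1) is known to raise the genes of both complexes together. Osgep encodes the enzyme of KEOPS, the complex behind t6A, a base modification of those tRNAs whose codons begin with A (ANN codons).

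Total counts were 46.7 to 81.1 M (M for 1000000 counts) in the RNA libraries and 12.9 to 40.3 M in the RPF libraries. Of the RPF counts, 4.42 to 17.0 M fell on protein-coding genes. The shOSGEP replicate 1 library had the lowest coding share of the RPF libraries, with 4.42 of 28.3 M. The shCtr replicate 1 library had 6.57 of 22.02 M, and shOSGEP replicate 3 had 12.6 of 28.7 M. The part of this low share in the RPF and TE results was not tested. Osgep RNA was 13.9, 15.7 and 15.3 CPM (counts scaled to 1000000 per library) in shCtr replicates 1, 2 and 3 and 0.589, 6.92 and 6.77 CPM in shOSGEP, without overlap, lowest in replicate 1 (fitted change -1.65, SE 0.77, edgeR adjusted p = 0.975). In RPF Osgep was at 7.72, 7.27 and 4.71 CPM against 4.87, 3.81 and 2.36 CPM, with overlap, a change of -0.84 (SE 0.39, adjusted p = 0.9998) that was smallest in pair 1 (-0.66, -0.92 and -0.98). All 7 melanoma markers (Mitf, Sox10, Pmel, Tyr, Dct, Tyrp1, Mlana) were detected in every library. Their summed RNA level was 2655 CPM in shOSGEP replicate 1 and 9665 to 16837 CPM in the other 5 RNA libraries, so this cell sample stands apart from the rest. The 7 markers of blood, endothelial and epithelial cells stayed at or below 0.217 CPM in RNA and 4.29 CPM in RPF, and those of fibroblasts summed to 3.78 to 24.002 CPM in RNA, highest in the same sample. Results are therefore also given by replicate pair, the difference between the shOSGEP and the shCtr library of one number. RPF and RNA results are also given without replicate 1, a fit that was not run for TE.

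In both genotypes nearly the whole set was expressed. At least 34 of the 36 genes were above the filter on low counts in each assay. The remaining pair were Psma8, a subunit of the testis that replaces Psma7 there, with 0 RNA counts and 31 RPF counts in all libraries together, and Psmb11, the catalytic subunit of the thymic cortex, with 2 RNA counts and 17 RPF counts. The members took 0.436% to 0.477% of all protein-coding counts in the 6 RNA libraries. In RPF this share was 0.566%, 0.544% and 0.387% in shCtr replicates 1, 2 and 3, and 0.710%, 0.532% and 0.337% in shOSGEP. Replicate 3 was thus the lowest in both genotypes, and the RPF share varied more than the RNA share did.

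Levels of genes were compared per length, as CPM per kb (1000 bases) of exons for RNA and of coding sequence for RPF. In shCtr RNA the beta ring subunit Psmb5, which holds the chymotrypsin-like site, was the highest of the core at 101 ± 7.61 CPM per kb (mean ± SD, n = 3) and the alpha subunit Psma2 the lowest of its detected members at 28.1 ± 2.04. Such ranks depend on the exon length, which is 899 bases for Psmb5 and 3673 for Psma2. In CPM, not divided by length, shCtr RNA averaged 91.1 for Psmb5 and 103 for Psma2. In the cap the ATPase Psmc5 led with 117 ± 8.41 CPM per kb, followed by the lid subunit Psmd8 with 92.6 ± 23.8, which the shCtr replicate 1 library raised (119 against 73.0 and 85.7). Per kb of exons Psmb6 (55.9 ± 5.49) and Psmb7 (39.5 ± 3.001), the other catalytic subunits, stood below Psmb5 by more than their SDs. In CPM they averaged 105 and 135 in shCtr, above Psmb5. Psmb6 itself was followed by Psmb2 at 54.9 ± 0.307 and Psmb3 at 48.1 ± 4.74, neighbours whose order lies within their spread.

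The lowest RNA levels of the cap belonged to genes that are not part of the finished particle. Psmd9, Psmd5 and Psmd10 encode chaperones that hold ATPases during assembly of the base, and they measured 4.14 ± 0.466, 7.85 ± 0.498 and 12.004 ± 1.19 CPM per kb in shCtr. The lowest true subunit, Psmd6 of the lid, was at 23.2 ± 2.15. Among the 31 common subunits the highest RNA level exceeded the lowest by 4.93 to 6.62 times within a library. The median of the core was 1.03 to 1.48 times that of the cap, with the highest ratio in shOSGEP replicate 1 and 1.03 to 1.22 in the other 5 RNA libraries. The order of the 34 detected genes was nearly fixed in RNA, with a Spearman correlation of 0.93 to 0.99 between any 2 RNA libraries. These correlations are across genes that share exon lengths and sequence composition, and are given as a description.

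**Figure D1:**
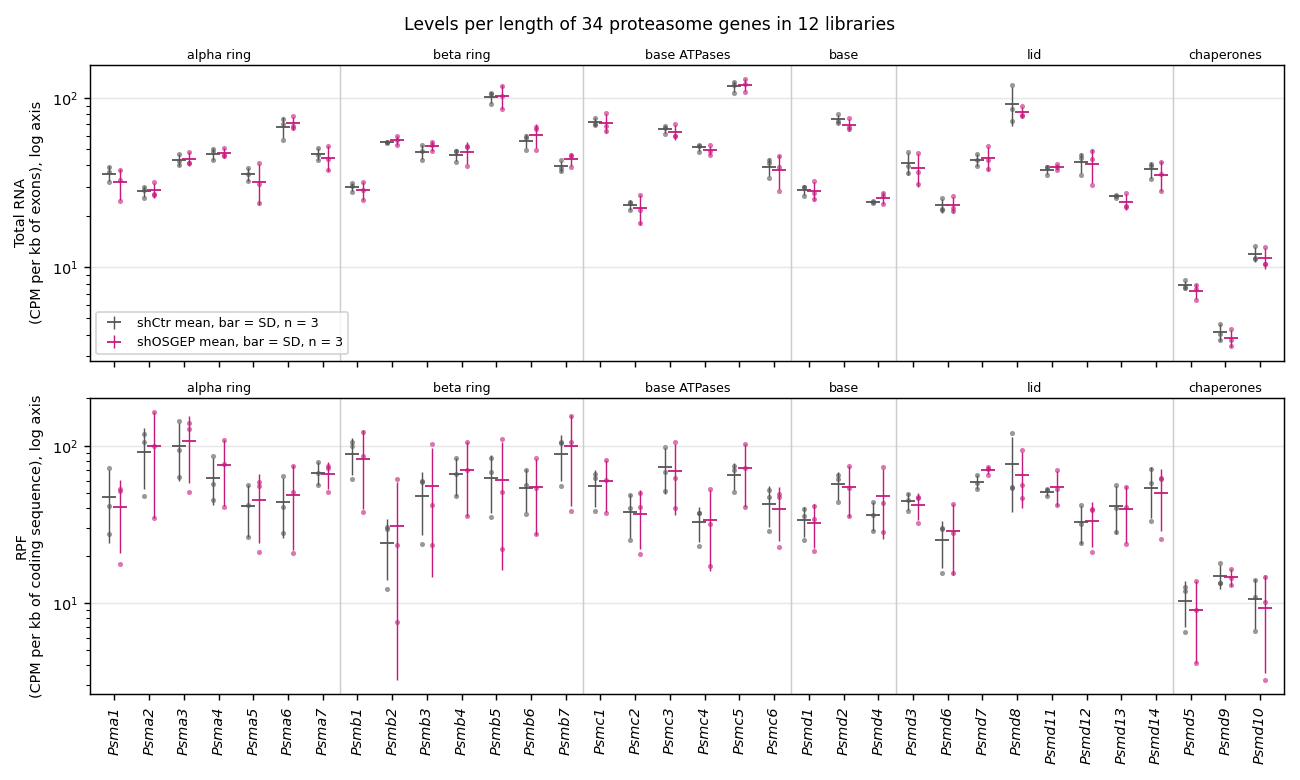
Level of each detected member in CPM per kb (log axis), total RNA above and RPF below, for shCtr (grey) and shOSGEP (pink). Points are libraries, dashes are means and bars are SD (n = 3). The 3 chaperones of the base at the right lie lowest in both assays, and the points of both genotypes overlap for every gene but Psmd7 in RPF.

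Footprints per kb of coding sequence ordered the subunits differently from RNA per kb of exons. In shCtr RPF the core was led by Psma3, an alpha ring subunit, at 100.05 ± 40.3 CPM per kb, while Psmb2 was lowest at 24.1 ± 10.2. Per kb of exons the RNA of Psmb2 was among the higher levels of the core, but this contrast depends on the length used. Psmb2 has 1204 bases of exons and 603 of coding sequence, and Psma3 3894 and 765. In CPM, not divided by length, shCtr RNA averaged 66.1 for Psmb2 and 168 for Psma3. In the cap Psmd8 had the highest mean at 76.2 ± 38.2 and Psmd5 the lowest at 10.3 ± 3.35, close to Psmd10 at 10.5 ± 3.69. The SDs are large against these differences. Psmd8 was highest in replicate 1 (120.3, 53.8 and 54.5 CPM per kb) and Psma3 in replicate 2 (94.3, 143 and 62.9). Neighbours in the RPF order do not differ beyond their SDs. Over the 34 genes the Spearman correlation between RNA per kb of exons and RPF per kb of coding sequence was 0.48 in shCtr. The part of the different lengths in this value was not tested. Between any 2 RPF libraries the correlation was 0.60 to 0.94. In RPF the median of the core was 1.10 to 1.67 times that of the cap.

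The first comparison was whether Osgep depletion changes the RNA of the proteasome, tested with edgeR's quasi-likelihood test across all genes with Benjamini-Hochberg adjustment. No member passed an adjusted p of 0.05, and none had an unadjusted p under 0.05. Of all 14516 genes tested, 0% passed the adjusted threshold and 1.78% (259 genes) the unadjusted one, and DESeq2 called 8 genes, none of them a member. The median fitted change (log2, shOSGEP relative to shCtr) was 0.02 over the 14 tested core genes and -0.06 over the 20 cap genes, against 0.02 over all genes. The fitted change was above 0 for 15 of the 34 members (10 of the core, 5 of the cap) and for 53.1% of all genes. The changes ran from -0.17 (Psma1) to 0.15 (Psmb7). The precision of this result is good. The 95% intervals of 24 of the 34 members (11 of the core, 13 of the cap) lay wholly within 0.5 log2 units of 0, and those of all 34 within 1. In bulk samples fewer cells with a transcript and less transcript per cell cannot be told apart.

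The catalytic subunits show how close the RNA values are. Psmb5 RNA was 95.8, 94.3 and 83.3 CPM in shCtr and 106, 92.5 and 77.01 CPM in shOSGEP, a change of 0.01 (SE 0.16, edgeR adjusted p = 0.998). Psmb6, the caspase-like subunit, was at 109, 112 and 92.8 CPM in shCtr and at 126, 122 and 92.7 CPM in shOSGEP, a change of 0.12 (SE 0.17, adjusted p = 0.975). Psmb7, the trypsin-like subunit, was at 127, 147 and 132 CPM in shCtr and at 156, 158 and 134 CPM in shOSGEP. It was higher in 3 of 3 pairs (0.30, 0.11 and 0.02), with a fitted change of 0.15 (SE 0.14, adjusted p = 0.975). The ranges of both genotypes overlap for each of the 3 genes.

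In the cap the deubiquitinase Psmd14 measured 93.8, 115 and 112 CPM of RNA in shCtr and 79.2, 119 and 100.1 CPM in shOSGEP (change -0.11, SE 0.19, edgeR adjusted p = 0.975). The ubiquitin receptor Psmd4 measured 67.9, 67.1 and 69.3 CPM in shCtr and 73.7, 77.6 and 66.2 CPM in shOSGEP (change 0.09, SE 0.13, adjusted p = 0.975). Neither changed by more than its spread. The genes with the smallest p, Psma1 and Psmb7 in the core and Psmd8 and Psmd5 in the cap, had changes of -0.17 (SE 0.19), 0.15 (SE 0.14), -0.17 (SE 0.21) and -0.12 (SE 0.14), each with an adjusted p of 0.975. For Psmd8, a lid subunit, the shCtr replicate 1 library decides the sign, and without it the change was 0.06.

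By pair the RNA changes were small. The median of the core was 0.11, 0.07 and -0.09 in pairs 1, 2 and 3 and that of the cap -0.14, 0.06 and -0.11. Of the 34 tested, 2 genes were higher in all 3 pairs (Psmb7 and the beta subunit Psmb3), where 17.7% of all genes were. A further 7 were lower in all 3 (Psma1, Psmc4, Psmd2, Psmd3, Psmd5, Psmd9 and Psmd10), where 16.2% of all genes were. All 3 chaperones of the base are among the 7, a grouping made after the values were seen. Psmd5, Psmd9 and Psmd10 had fitted changes of -0.12 (SE 0.14), -0.11 (SE 0.16) and -0.08 (SE 0.18). In pair 3 the change of Psmd9 was -0.008. No member had groups without overlap in RNA, against 4% of all genes higher and 3.09% lower. Without replicate 1 the median was -0.01 for the core and -0.04 for the cap.

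**Figure D2:**
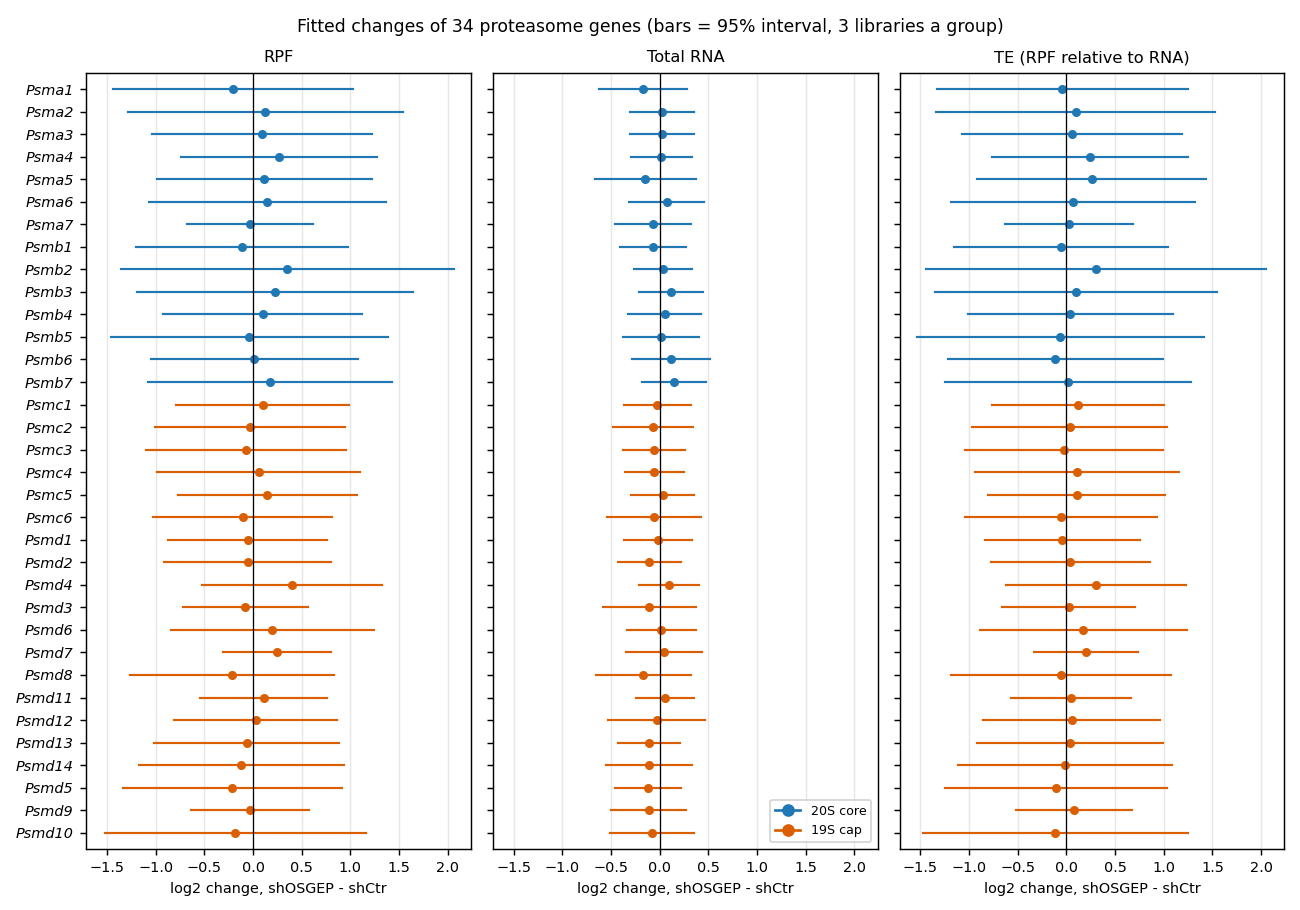
Fitted log2 change (shOSGEP relative to shCtr) of each tested member in RPF, total RNA and TE, with its 95% interval as a bar, 20S core in blue and 19S cap in orange. All intervals hold 0, and those of RNA are the narrowest, with a median SE of 0.15 against 0.44 in RPF.

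The second comparison was whether ribosome footprints on these genes differ. No member passed in RPF, either at an adjusted p of 0.05 (0% of 13529 genes did) or at an unadjusted p of 0.05 (1.03% of genes, 139, did). DESeq2 called 1 gene, which was not a member. An unadjusted p under 0.5 was found for 2 of the 34 members and for 42.5% of all genes. The members move together within a library, so they are not independent observations in this count. The median fitted change was 0.11 over the core and -0.04 over the cap, beside 0.05 over all genes, with 18 of the 34 members and 54.9% of all genes above 0. The changes ran from -0.22 (Psmd8) to 0.40 (Psmd4). The RPF fit, which like that of RNA has no replicate term, bound these values less tightly. The widest interval was that of Psmb2, from -1.36 to 2.06, and the intervals of 9 members lay within 1 log2 unit of 0, so for the other 25 a change of over 2 times in at least 1 direction lay within the interval.

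Footprint counts of the catalytic subunits varied between replicates more than between genotypes. Psmb5 was at 66.7, 54.2 and 27.8 CPM in shCtr RPF and at 87.0, 40.3 and 17.4 CPM in shOSGEP RPF, a change of -0.04 (SE 0.60, edgeR adjusted p = 0.9998). Psmb6 was at 49.8, 40.0 and 26.3 CPM against 59.3, 38.6 and 19.5 CPM (change 0.01, SE 0.45). Psmb7 was at 88.1, 86.6 and 45.9 CPM against 128, 88.2 and 32.0 CPM (change 0.17, SE 0.53). In all 3 genes the shOSGEP values span those of shCtr, with replicate 1 above and replicate 3 below.

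The deubiquitinase and the receptor also overlapped between genotypes. Psmd14 had 53.98, 66.1 and 30.8 CPM in shCtr RPF and 57.97, 57.5 and 23.6 CPM in shOSGEP RPF (change -0.12, SE 0.45). Psmd4 had 50.1, 41.5 and 32.8 CPM against 83.1, 49.3 and 32.1 CPM (change 0.40, SE 0.39). Among the genes with the smallest p were also Psma4 (change 0.27, SE 0.43) and Psmb2 (change 0.35, SE 0.72) of the core. For Psmd4, Psma4 and Psmb2 the shOSGEP replicate 1 library decides the sign, since without it the changes were -0.04, -0.10 and -0.64.

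Psmd7, a lid subunit that pairs with Psmd14 (ENSMUSG00000039067, chromosome 8, 107580381 to 107588464, minus strand, GRCm38), was the member whose footprints kept their direction. It had 51.4, 62.7 and 56.1 CPM in shCtr RPF and 62.8, 70.8 and 68.6 CPM in shOSGEP RPF. The groups do not overlap, but the lowest shOSGEP and the highest shCtr value lie close together. Among all genes tested 2.43% were higher without overlap, and 2.64% lower, where no member was. The change was 0.25 (SE 0.23, 95% interval -0.31 to 0.80, edgeR adjusted p = 0.9998), and it was 0.29, 0.18 and 0.29 in the 3 pairs. Psmd7 was the only 1 of the 34 higher in all 3 pairs, against 15.7% of all genes, and no member was lower in all 3, against 15.2%. Leaving out any single library or replicate 1 of both genotypes gave 0.17 to 0.32.

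The pairs disagreed in direction for footprints. In pair 1 all 14 tested core genes were higher in shOSGEP RPF, with a median change of 0.47 and a range of 0.14 (Psma7) to 1.012 (Psmb2). In pair 2 the core had a median of -0.15, with 2 of 14 higher, and in pair 3 a median of -0.43, with 0 of 14 higher. Between 49.3% and 49.9% of all genes were higher in each of the 3 pairs. The medians of the cap had the same signs and were smaller in size, at 0.20, -0.06 and -0.25, with 16, 9 and 1 of 20 genes higher. Because members move together within a library, these counts are not independent observations. The averages over 3 pairs, -0.04 for the core and -0.04 for the cap, therefore join changes of opposite sign, and without replicate 1 the fitted median was -0.20 for the core and -0.10 for the cap.

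**Figure D3:**
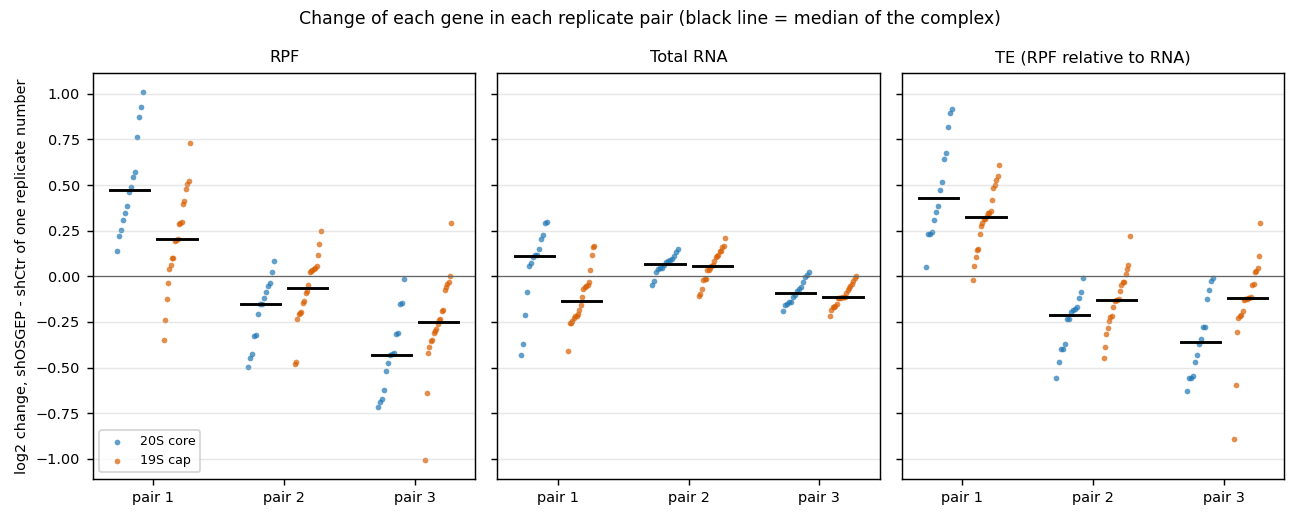
Log2 change of each tested member between the shOSGEP and the shCtr library of one replicate number, in RPF, total RNA and TE, for the 20S core (blue, 14 genes) and 19S cap (orange, 20 genes), with the median as a black line. In RPF the core lies above 0 in pair 1 (median 0.47) and below 0 in pair 3 (median -0.43), while RNA stays near 0.

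The third comparison was of translational efficiency (TE), the footprints of a gene relative to its RNA, tested across all 12 libraries by an interaction term between assay and genotype. No member passed an adjusted p of 0.05 or an unadjusted p of 0.05, beside 0% and 0.135% (17 genes) of the 12560 genes tested, and DESeq2 called 0. The median fitted TE change was 0.05 over the core and 0.04 over the cap, with all genes at -0.00240. It was above 0 for 23 of the 34 members and 49.6% of all genes. By pair, 14, 0 and 0 of the 14 core genes had a higher TE in pairs 1, 2 and 3. In the cap 19, 4 and 5 of 20 did, and of all genes 50.9%, 47.8% and 47.9%. The pair medians of the cap were 0.32, -0.13 and -0.12. Members move together within a library, so these counts are not independent observations. Psmb5, Psmb6 and Psmb7 had TE changes of -0.06 (SE 0.67), -0.11 (SE 0.50) and 0.02 (SE 0.58), and Psmd14 of -0.02 (SE 0.50). The members with the smallest p were Psma4 (0.24, SE 0.46) and the alpha subunit Psma5 (0.26, SE 0.54) in the core and Psmd7 (0.20, SE 0.24) and Psmd4 (0.30, SE 0.42) in the cap. The last pair were also the only members with a higher TE in all 3 pairs, against 11.6% of all genes, and Psmd7 alone had groups that did not overlap, against 2.03%.

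Set beside all genes, TE of the members depended on the replicate. The median of log2 RPF minus log2 RNA over all genes tested was -1.39 to -1.31 in the 6 cell samples. The core lay above that median in replicate 1, at -1.12 in shCtr and -0.57 in shOSGEP, and in replicate 2, at -0.87 and -1.21. In replicate 3 it lay below, at -1.75 and -2.08. The cap followed at -0.86, -1.02 and -1.67 in shCtr replicates 1, 2 and 3 and -0.52, -1.23 and -1.72 in shOSGEP. The difference between replicates 1 and 3 of the same genotype was thus larger than that between genotypes of the same replicate in each case.

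**Figure D4:**
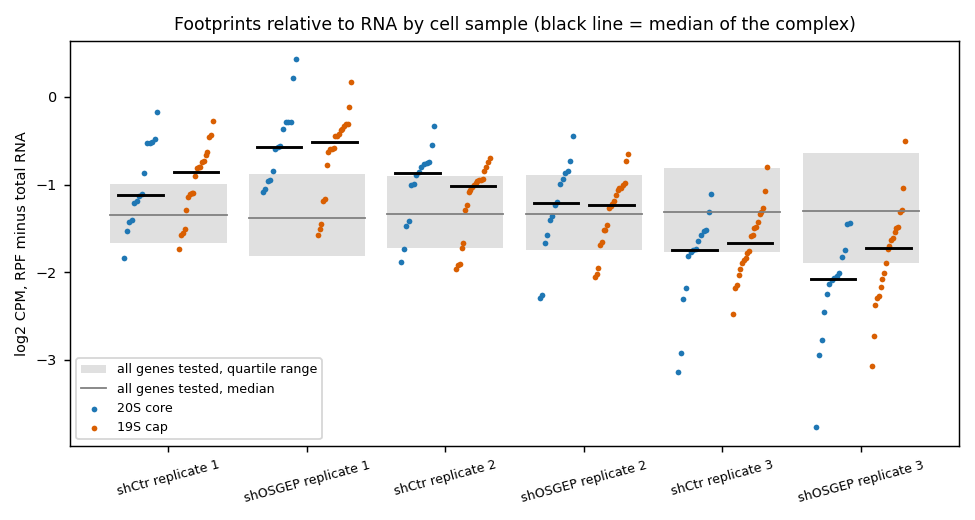
Footprints relative to RNA (log2 CPM of RPF minus that of total RNA) of each tested member in the 6 cell samples, ordered by replicate number, with the median of each complex as a black line. Grey bands give the quartile range of all 12560 genes tested. Both complexes lie above the grey median in replicates 1 and 2 and below it in replicate 3, in both genotypes.

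Sequence composition was set beside these footprint differences. The core genes have short coding sequences of 603 to 906 bases, the cap genes 666 to 2859, and both complexes have a median GC content near 50% (49.4% and 49.96%) within a range of 41.8% (Psmc6) to 58.9% (Psmd9). Over the 34 tested members, the TE difference between shCtr replicates 2 and 1, which share a genotype and have the shCtr libraries in common with pairs 1 and 2, had a Spearman correlation with GC content of -0.69, where all 11311 protein-coding genes tested had -0.23. The difference between shCtr replicates 3 and 1, with a member median of -0.79, had correlations of the other sign, 0.22 over the members and 0.26 over all. The TE change in pairs 1, 2 and 3 had correlations with GC content of -0.54, 0.45 and 0.13 over the members and of -0.14, 0.25 and 0.07 over all. Genes with coding sequences above 600 and up to 1000 bases, the class of 18 members, had median TE changes of 0.08, -0.04 and -0.09 in pairs 1, 2 and 3, the same signs as those of the core (0.43, -0.21 and -0.36) but smaller. Genes above 1000 and up to 1500 bases, the class of 12 members, all of the cap, had -0.02, -0.006 and -0.05. The medians of the cap were 0.32, -0.13 and -0.12, of the other sign in pair 1. Points share their library and their composition, and the part of composition in the results was not tested.

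Codons that start with A, which t6A tRNAs read, made up 28.5% of the codons of the median core gene and 28.7% of the median cap gene, against 27.0% over all protein-coding genes tested for TE. The members ran from 21.6% (Psmb5) to 33.1% (Psmd12, a lid subunit) among those tested. Psmd12 had a TE change of 0.05 (SE 0.41) and Psmb5 of -0.06 (SE 0.67), so these extremes did not differ beyond their errors. The correlation of the ANN share with the TE change over the 34 members was 0.29, -0.12 and 0.42 in pairs 1, 2 and 3, and over all protein-coding genes tested 0.11, -0.20 and -0.08.

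Partners of the constitutive subunits were examined from lists of assembly factors, activators, receptors and regulators. None of their genes passed an adjusted p of 0.05 or an unadjusted p of 0.05 in RPF, total RNA or TE. Pomp, which matures the core, was at 82.1, 100.4 and 84.5 CPM of RNA in shCtr and 85.2, 101 and 79.3 CPM in shOSGEP, a change of -0.01 (SE 0.16). The 8 tested assembly chaperones had a median RNA change of -0.05, ranging from -0.12 (Psmd5) to 0.11. They include Psmd5, Psmd9 and Psmd10, which are also counted among the members. The 9 tested receptors, deubiquitinases and shuttle factors had a median of -0.10 (-0.29 to 0.31), and the 3 tested adaptors of the segregase VCP a median of -0.04. In TE the smallest p among them was that of the VCP adaptor Nploc4, with a change of -0.27 (SE 0.26, edgeR adjusted p = 0.99999). It was lower in 3 of 3 pairs, where 11.2% of all genes were, and without overlap, where 2.31% were.

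Nfe2l1, which encodes the regulator NRF1 (ENSMUSG00000038615, chromosome 11, 96817414 to 96829968, minus strand), had the smallest p of these lists in RNA. It measured 273, 251 and 199.9 CPM of RNA in shCtr and 765, 301 and 280 CPM in shOSGEP, and 137, 103 and 120 CPM against 261, 146 and 170 CPM in RPF. The groups did not overlap in either assay and all 3 pairs were higher, by 1.49, 0.26 and 0.48 in RNA and 0.93, 0.51 and 0.50 in RPF. Of all genes tested, 4% in RNA and 2.43% in RPF were higher without overlap. Higher in all 3 pairs were 17.7% and 15.7%. The fitted changes of 0.89 (SE 0.40, edgeR adjusted p = 0.975) and 0.68 (SE 0.33, adjusted p = 0.9998) did not pass the test. Without replicate 1 they were 0.35 and 0.49. The other genes that act on NRF1 had RNA changes of 0.29 (Ngly1, which deglycosylates it), 0.03 (Ddi2, the protease that cleaves it) and -0.08 (Vcp).

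NRF1 binds antioxidant response elements, and promoters of the members were searched for their core, TGACNNNGC or TGAGNNNGC, on both strands. RefSeq promoters (GRCm38.p6, 250 bases before to 50 after the start) were matched for 29 of the 36 genes. Psma8, Psmb1, Psmb2, Psmb7, Psmc3, Psmd3 and Psmd7 were not searched. The core was found in 14 of the 29 genes (48.3%), namely 7 of 12 in the 20S core and 7 of 17 in the 19S cap. Counted by promoter, as some genes have more than 1, it was in 15 of 31 (48.4%), and in 27.8% of all 32851 promoters. It was in 0 of the 3 promoters of the inducible subunits. The box CCAAT, searched on both strands as well, was in 12 of 29 genes, which is 12 of 31 promoters (38.7%), and in 37.4% of all promoters. A match describes letters in this window and not a bound site. Windows of 30 bases are shown for 2 catalytic subunits, the alpha subunit with the smallest p in RPF and the lid subunit with the highest ANN share, 5′ to 3′ on the strand of the gene, with the motif in capitals.
Psmb5, chr14:54618023-54618052, minus strand: cgtgaagttgTGACGTCGCggcgttgccag
Psmb6, chr11:70525327-70525356, plus strand: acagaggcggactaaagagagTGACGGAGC
Psma4, chr9:54950722-54950751, plus strand: gtgggcagacTGAGCCCGCcccagcactgg
Psmd12, chr11:107479490-107479519, plus strand: cctgagtggaTGAGCGGGCgacttccggtg
The motifs start 47, 9, 127 and 28 bases before the RefSeq starts. All 4 of these genes had RNA changes between -0.03 (Psmd12) and 0.12 (Psmb6), with Psmb5 at 0.01 and Psma4 at 0.01, none of which passed the test.

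The inducible subunits, which replace the catalytic ones in the immunoproteasome under interferon, were compared with their constitutive partners within each library as a log2 ratio of counts. Psmb9 stands in for Psmb6, Psmb10 for Psmb7 and Psmb8 for Psmb5. Their RNA was low. Psmb10 was at 7.57, 7.42 and 7.05 CPM in shCtr and 25.8, 8.14 and 7.82 CPM in shOSGEP. Psmb9 was at 0.714, 0.216 and 0.889 CPM against 6.74, 0.233 and 0.946 CPM. Psmb8 had 1, 1 and 0 RNA counts in shCtr and 78, 0 and 0 in shOSGEP. Each of the 3 was raised above the other libraries in shOSGEP replicate 1.

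The ratio of Psmb10 to Psmb7 RNA differed by 1.47, 0.02 and 0.13 in pairs 1, 2 and 3, and that of Psmb9 to Psmb6 by 3.02, -0.05 and 0.09. In RPF these differences were 1.80, 0.19 and 0.23 for Psmb10 and 4.03, 0.22 and 1.65 for Psmb9, on 2 to 46 counts of Psmb9 a library. The mean differences for Psmb10 were 0.54 in RNA (exact permutation test, two-sided, p = 0.6, adjusted p = 0.9 over 6 ratios) and 0.74 in RPF (exact p = 0.3, adjusted p = 0.9). For Psmb9 they were 1.02 (exact p = 0.5, adjusted p = 0.9) and 1.97 (exact p = 0.2, adjusted p = 0.9), and 3 libraries against 3 cannot give less than 0.1. For Psmb8 the mean difference was 1.07 in RNA (exact p = 1) and 0.67 in RPF (exact p = 0.8), and without replicate 1 it was -1.11 and -1.33. In the fit across genes the changes were 0.92 (SE 0.48) for Psmb10 and 2.12 (SE 1.18) for Psmb9 in RNA, both with an edgeR adjusted p of 0.975, and 0.13 and 0.08 without replicate 1. Psmb10 RPF changed by 1.33 (SE 0.77, adjusted p = 0.9998), and by -0.04 without replicate 1.

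**Figure D5:**
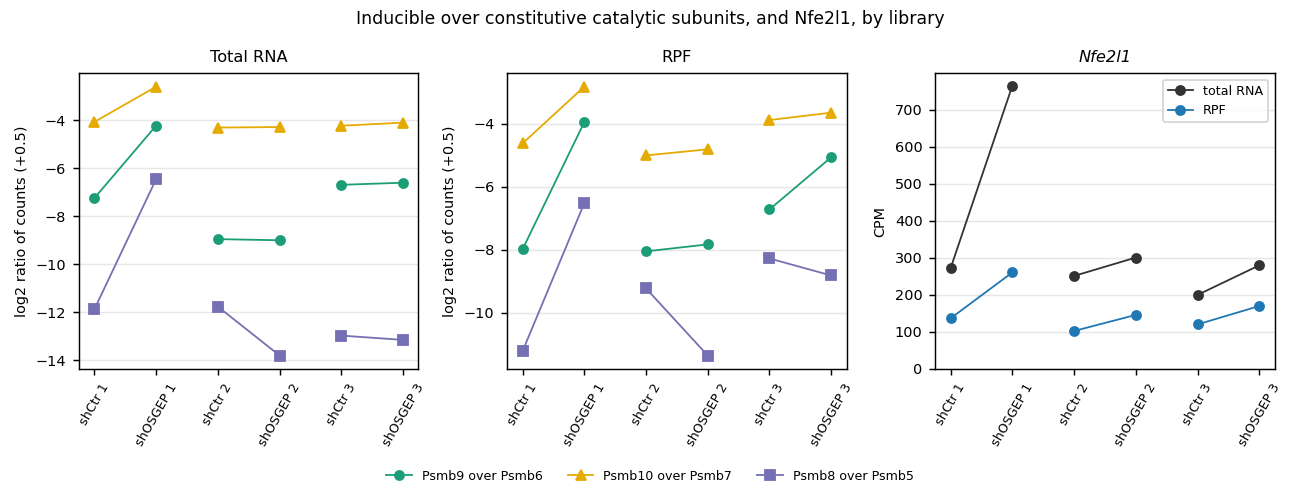
Log2 ratio of the counts of each inducible subunit to its constitutive partner, in total RNA and RPF, and Nfe2l1 in CPM, by library, with lines joining the libraries of one replicate number. The Psmb10 and Psmb9 ratios differ most in pair 1 (1.47 and 3.02 in RNA) and by -0.05 to 0.13 in the RNA of pairs 2 and 3. Nfe2l1 is higher in shOSGEP in each pair, as were 17.7% of all genes tested in RNA and 15.7% in RPF.

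Among the activators of the core, pair 1 set a pair of genes apart from the others. Psme1 and Psme2, which form the interferon-responsive activator PA28, had RNA pair changes of 0.99, 0.09 and -0.10 and of 1.66, 0.25 and -0.08, with fitted changes of 0.42 (SE 0.34) and 0.90 (SE 0.55). Psme3, the nuclear PA28 gamma, and Psme4 (PA200) had RNA changes in pair 1 of -0.07 and -0.44 and fitted changes of -0.06 (SE 0.14) and -0.13 (SE 0.23), and the inhibitor Psmf1 of 0.12 (SE 0.16). None passed the test. Melanoma markers are lowest in that same shOSGEP replicate 1 sample, and their part in these values was not tested.

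Copies of members elsewhere in the genome, and overlapping genes, could take or give reads. For Psma3 a processed pseudogene (Gm13835) is identical over 665 bases and held 0.679% of the RNA and 3.37% of the RPF counts of both together. For Psma5 the copies held 0.628% of RNA and 1.99% of RPF. For Psmd11 the transcript A730017L22Rik aligned at 97.8% identity over 1298 bases and held 2.56% of RNA and 5.47% of RPF, and for Psmd1 the gene Gm21972 was identical over 305 bases and held 0.037% of RNA and 11.2% of RPF. Psmd13 and Sirt3, Psmb7 and Nek6, and Psmc3 and Slc39a13 share 329, 255 and 148 bases of transcript on opposite strands. Sirt3 held 7.33% of the RPF counts of its pair, Nek6 30.6% and Slc39a13 7.87%. The use of strand in counting is not given in the sources used here, so some reads of these pairs may not be assigned to the right gene.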

How the data were processed

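RPF and RNA libraries of 6 cell samples were analysed from tables of read counts per Ensembl gene, deposited as whole numbers without normalisation. The authors' notes name FastQC 0.11.9, Trim Galore 0.6.6, cutadapt and STAR, with GRCm38 and GRCm39 as builds. For its RNA sequencing the paper names an nf-core workflow with STAR on GRCm38 and Salmon. Whether Salmon made these whole-number tables, how RPF reads were counted per gene, the annotation, the strand and the treatment of multiply matching reads are not given in the sources used here. Symbols, coordinates and lengths came from GENCODE M21 (GRCm38), in which 260 gene IDs were not found.

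Members, gene lists and tests were chosen with earlier results of these data known. Counts were tested with edgeR 4.0.16 (quasi-likelihood, filterByExpr, TMM, Benjamini-Hochberg threshold 0.05) in R 4.3.3, RPF and RNA apart, and TE as the interaction of assay and genotype with TMM within assay. SEs were derived from the F statistic. CPM used the same library sizes, and log2 CPM a prior count of 2. Ratios of inducible to constitutive subunits used 0.5 added counts and an exact permutation test. The fits were run on simulated data with a fixed dispersion and no shared replicate effect, which does not cover the spread between these replicates. Fitted values are given for the 3 catalytic subunits, Psmd14, Psmd4, the 2 members of each complex and family with the smallest p, and named partners, with others named as examples after their values were seen. Same-numbered libraries deviated together (correlations 0.51 to 0.67 in RPF and 0.29 to 0.54 in RNA), so replicate numbers pair the samples. Alternatives were RLE size factors, other filters, protein-coding genes only, DESeq2 1.42.0, a replicate block, each library left out and other lengths and pseudocounts. Depth was 12.9 to 81.1 M counts a library. No library copied another within sampling noise (chi-square per degree of freedom at least 81.1). Copies were found by alignment of transcripts (at least 95% identity over 100 bases). One further gene list is not reported here.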

Additional observations from a re-analysis of the deposited data

How the results depend on the processing

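No member passed the adjusted threshold in RPF, RNA or TE under any of the 13 alternatives run in each family, and none had an unadjusted p under 0.05 there. The smallest member p was 0.114 in RPF, 0.111 in RNA and 0.200 in TE. Over all genes 0 to 229 passed in RPF and 0 to 21 in TE, the most in both without a filter on low counts, and 0 to 8 in RNA, the most with DESeq2. The intervals of the main fit limit the footprint result, since 25 of 34 in RPF reach beyond 1 log2 unit. That fit has no replicate term, so spread shared by same-numbered libraries is part of these intervals. An unadjusted edgeR p under 0.05 was found for 549 genes in RPF with the replicate block and 139 without it. In TE these numbers were 76 and 17, and in neither family was any of the genes a member.

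With the replicate number as a block, which pairs the samples, the median changes were -0.00271 (20S core) and -0.08 (19S cap) in RPF, 0.02 and -0.07 in RNA and -0.05 and 0.00815 in TE, and no member's call changed. Under the block values moved by over 1.5 times for Psmb5 (-0.24), Psmb6 (-0.0779), Psmb7 (0.0161), Psmb2 (-0.00684) and Psmb10 (0.74) in RPF, for Psmb5 (0.00364) and Psmb9 (1.198) in RNA, and for Psmb5 (-0.25), Psmb6 (-0.20), Psmb7 (-0.13), Psmd14 (-0.0468), Psmb10 (0.0742) and Nfe2l1 (-0.11) in TE. Without a filter Psmb6 in RPF came to -0.065, Psmb5 in RNA to -0.00982 and Psmb7 in TE to -0.0314. Psmd14 in TE came to 0.00103 with RLE size factors, 0.00103 with DESeq2 and 0.0102 with protein-coding genes only.

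Leaving out single libraries or cell samples moved the RPF change over -0.37 to 0.44 for the median of the 20S core, -0.29 to 0.21 for the median of the 19S cap, -0.79 to 0.36 for Psmb5, -0.42 to 0.33 for Psmb6, -0.30 to 0.55 for Psmb7, -0.38 to 0.20 for Psmd14, -0.0381 to 0.67 for Psmd4, -0.16 to 0.56 for Psma4, -0.64 to 0.81 for Psmb2, -0.14 to 1.75 for Psmb10 and -0.0972 to 0.028 for Pomp.

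Leaving out single libraries or cell samples moved the RNA change over -0.0298 to 0.0559 for the median of the 20S core, -0.16 to 0.0175 for the median of the 19S cap, -0.11 to 0.11 for Psmb5, -0.26 to 0.0217 for Psmd14, -0.31 to 0.0569 for Psmd8, -0.0572 to 2.66 for Psmb9 and -0.12 to 0.0887 for Pomp.

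Leaving out single libraries or cell samples moved the TE change over -0.41 to 0.36 for the median of the 20S core, -0.30 to 0.27 for the median of the 19S cap, -0.67 to 0.24 for Psmb5, -0.45 to 0.0919 for Psmb6, -0.41 to 0.34 for Psmb7, -0.34 to 0.32 for Psmd14, -0.11 to 0.52 for Psmd4, -0.12 to 0.52 for Psma4, -0.15 to 0.59 for Psma5, -0.26 to 0.54 for Psmb10, -0.39 to 0.13 for Nfe2l1 and -0.0913 to 0.0333 for Pomp.

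Without one replicate number the mean difference of the Psmb8 to Psmb5 ratio ran from -1.11 to 2.62 in RNA and from -1.33 to 2.07 in RPF. The alternative without replicate 1 of both genotypes was chosen after seeing the data, and was not run for TE. The cause of these shifts was not tested. Another prior count or pseudocount moved no value by more than its spread. Levels per kb depend on the length used.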
